A study of Mus musculus with 10 samples.

Results

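Astrocytes are the star-shaped support cells of the brain, and 32 genes that mark them or their reactive state were followed in RNA sequencing of cell fractions prepared as microglia from mouse cortex. The genes were given as a list of symbols, and all 32 were found among the 24421 gene symbols of the count tables. The list holds 10 reactive genes, which astrocytes are known to raise after injury or inflammation, and 22 other astrocyte genes.

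The data compare 9-month-old wild-type mice (WT, n = 3 libraries), APP/PS1 mice of the same age (n = 4) and APP/PS1 mice of that age given N-AS (n = 3). APP/PS1 mice carry mutant human APP and presenilin-1 transgenes and serve as a model of Alzheimer's disease, and the promoters that drive the transgenes are not given in the sources used here. N-AS is N-acetyl sphingosine, a lipid that acetylates COX2, and was given as daily subcutaneous injections of 30 mg/kg over 8 weeks starting at 7 months of age. Cells were released from minced cortex with papain and separated on a density gradient, and each library came from a pool of a pair of mice. The labels name no injection for the WT and the other APP/PS1 mice, whereas the study's text describes the APP/PS1 mice compared with N-AS as given vehicle. It also states that only males were used.

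In the healthy cortex astrocytes take up glutamate and convert it to glutamine, move water and potassium, exchange ions and metabolites through gap junctions and store glycogen. When neurons are damaged or inflammation starts, astrocytes become reactive: they build more intermediate filaments and secrete acute phase proteins and protease inhibitors. Reactive astrocytes are well known around the amyloid plaques of APP/PS1 mice and similar models.

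The total count per library was between 8805804 and 19432075 reads, and the members had at least 18 and at most 44390 reads in a library. Every library of the labelled microglia held reads of the defining astrocyte markers Gfap, Aqp4, Aldh1l1, Slc1a2, Gja1 and Gjb6, beside markers of microglia, oligodendrocytes, neurons and endothelial cells. Several libraries stood apart. WT 3 had the lowest summed level of 8 endothelial markers (512 CPM, counts per 1000000 reads after TMM scaling of the library sizes, against 977 to 1395 CPM in the other libraries) and the highest of 10 neuronal markers (5141 CPM against 1575 to 3001 CPM). WT 3 and APP/PS1+N-AS 3 had 21.4 and 26.0 CPM for 5 choroid plexus and ependymal markers, where all other libraries had 412 to 1215 CPM. Xist, the transcript of the silenced X chromosome in female cells, was at 1.59 to 4.40 CPM in WT, 453 to 579 CPM in APP/PS1 and 463, 469 and 2.14 CPM in APP/PS1+N-AS. The Y-linked Ddx3y was at 69.0 to 73.2 CPM in WT, 0.476 to 26.8 CPM in APP/PS1 and 13.6, 19.0 and 73.4 CPM in APP/PS1+N-AS. The sum of 4 Y-linked genes was 177 to 197 CPM in WT, 42.7 and 57.0 CPM in APP/PS1 1 and 2, 0.888 and 0.619 CPM in APP/PS1 3 and 4, and 31.0, 45.7 and 175.6 CPM in APP/PS1+N-AS. These values go against the statement that the mice were male for all 4 APP/PS1 libraries and for APP/PS1+N-AS 1 and 2. The labels give no sex for the pools, and sex cannot be told apart from genotype in APP/PS1 compared with WT. The sex-linked levels also set APP/PS1+N-AS 3 apart from the rest of its group, and their part in the results was not tested.

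Gfap, which encodes the glial fibrillary acidic protein of astrocyte intermediate filaments, was the member with the largest difference. It was at 15.6, 17.6 and 10.9 CPM in WT, at 499, 617, 899.8 and 923 CPM in APP/PS1 and at 277, 340.2 and 76.2 CPM in APP/PS1+N-AS. No library overlapped between any pair of the 3 groups: APP/PS1 was highest, APP/PS1+N-AS lay between and WT was lowest. Compared with WT, Gfap rose 50.1-fold in the APP/PS1 libraries, or on the log2 scale by 5.65 ± 0.55 (SE, the standard error, adjusted p = 0.000545, edgeR's quasi-likelihood test with adjustment over the 18727 genes tested). In bulk libraries more cells of a type and more RNA per cell cannot be told apart, and this holds for all members. Compared with WT, Gfap also rose in APP/PS1+N-AS, by a log2 fold change of 3.98 ± 0.51 (SE, adjusted p = 0.0187, edgeR). The APP/PS1 result passed the adjustment with each of the 10 libraries left out in turn. The APP/PS1+N-AS result lost it without WT 1, WT 2, APP/PS1+N-AS 1 or APP/PS1+N-AS 2, where the log2 fold change was 3.60 to 4.14 (adjusted p = 0.101 to 0.127, edgeR), and kept it without WT 3 or APP/PS1+N-AS 3 (3.81 and 4.42) and without each APP/PS1 library. Compared with APP/PS1, Gfap had a log2 fold change of −1.67 ± 0.44 in APP/PS1+N-AS (unadjusted p = 0.00329), which missed the threshold after adjustment (adjusted p = 0.494, edgeR).

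The size of the Gfap difference between APP/PS1+N-AS and APP/PS1 depended on the library. APP/PS1+N-AS 3, whose Xist and choroid plexus markers were at the level of WT 3, had the lowest Gfap of its group, at 76.2 CPM against at most 17.6 CPM in WT. Without it, the log2 fold change of APP/PS1+N-AS compared with APP/PS1 was −1.24 (adjusted p = 0.677, edgeR). The labels number the libraries: 1 to 6 are the first pair of replicates per group, 7 to 10 are WT 3, APP/PS1 3, APP/PS1 4 and APP/PS1+N-AS 3, and the difference of mean log2 CPM was −0.85 within the first set and −3.58 within the second, which has 1 APP/PS1+N-AS library.

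The start of the Gfap gene is shown because Gfap differed most, with the bases that match a STAT-type motif in capitals (TTCNNNGAA on either strand, the pattern bound by STAT3, a known driver of the reactive state). The window runs from 250 bases before to 50 bases after the RefSeq start site, at chr11:102897151-102897450 on the minus strand of GRCm38.p6, within the Gfap gene as annotated in GENCODE M21. The gene Gm26668 overlaps Gfap on the other strand, and the strand setting of the counting is not given in the sources used here, so reads of the pair may not have been told apart. The match lies 2 bases before to 6 bases after the start site.
Gfap: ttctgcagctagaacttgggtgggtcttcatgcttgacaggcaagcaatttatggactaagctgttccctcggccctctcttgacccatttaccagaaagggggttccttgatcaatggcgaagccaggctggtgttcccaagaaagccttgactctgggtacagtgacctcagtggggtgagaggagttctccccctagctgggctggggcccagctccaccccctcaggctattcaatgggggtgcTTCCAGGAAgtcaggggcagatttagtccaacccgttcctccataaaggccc
Of all 32851 RefSeq promoter windows of this length, 8.3% held TTCNNNGAA, a share of windows and not of genes. The 28 members with a window had 33 windows, and 6 members held it in at least 1 of theirs: Acsbg1, Aldoc, Gfap, Ntsr2, Slc1a3 and Steap4. Among the 10 reactive genes these were 2, and a match describes the letters only.

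Vim encodes vimentin, the other intermediate filament protein of reactive astrocytes, which endothelial cells and other cells also make. It was at 342, 404 and 120.0 CPM in WT, at 286, 305, 332 and 399.5 CPM in APP/PS1 and at 252, 274 and 232 CPM in APP/PS1+N-AS. WT 3 was far below the other libraries, as it was for the endothelial markers, and the WT and APP/PS1 groups overlapped. The log2 fold change of APP/PS1 compared with WT was 0.20 ± 0.33 (SE, adjusted p = 0.814, edgeR), and −0.17 without WT 3, so the large difference in Gfap had no counterpart of such size in vimentin. All 3 APP/PS1+N-AS libraries were below all 4 APP/PS1 libraries, with a log2 fold change of −0.39 ± 0.33 (SE, adjusted p = 0.770, edgeR).

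Among the secreted reactive genes, Serpina3n, a serine protease inhibitor of the acute phase response, also separated both transgenic groups from WT. Its level was 2.38, 2.10 and 3.13 CPM in WT, 9.58, 11.6, 12.8 and 17.1 CPM in APP/PS1 and 15.2, 23.4 and 6.43 CPM in APP/PS1+N-AS. Every library of both transgenic groups was above every WT library, and the transgenic groups overlapped. Serpina3n rose in APP/PS1 compared with WT by a log2 fold change of 2.32 ± 0.41 (SE, adjusted p = 0.0122, edgeR). In APP/PS1+N-AS it rose compared with WT by 2.55 ± 0.42 on the log2 scale (SE, adjusted p = 0.0485, edgeR), and compared with APP/PS1 the log2 fold change was 0.23 ± 0.35 (SE, adjusted p = 0.886, edgeR). The APP/PS1 result narrowly lost the adjustment without WT 1 (2.28, adjusted p = 0.0513) or WT 2 (2.19, adjusted p = 0.0561, both edgeR). The APP/PS1+N-AS result passed in 1 of the 10 fits that left out 1 library, the one without APP/PS1+N-AS 3 (2.94, adjusted p = 0.00179, edgeR). In the other 9, which include each APP/PS1 library, the log2 fold change was 2.10 to 2.77 (adjusted p = 0.0603 to 0.304, edgeR). Serpina3n belongs to a multigene family whose other members had at most 4.38 CPM here, and how reads were shared among these similar genes is uncertain.

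The start of Serpina3n is shown as the second reactive gene that rose, with matches to an NF-kappaB-type motif in capitals (GGGA and CC with 4 bases between them, on either strand, the pattern bound by NF-kappaB, a regulator of inflammatory genes). The window lies at chr12:104406458-104406757 on the plus strand of GRCm38.p6, and its matches lie 170 to 161 and 43 to 34 bases before the RefSeq start site.
Serpina3n: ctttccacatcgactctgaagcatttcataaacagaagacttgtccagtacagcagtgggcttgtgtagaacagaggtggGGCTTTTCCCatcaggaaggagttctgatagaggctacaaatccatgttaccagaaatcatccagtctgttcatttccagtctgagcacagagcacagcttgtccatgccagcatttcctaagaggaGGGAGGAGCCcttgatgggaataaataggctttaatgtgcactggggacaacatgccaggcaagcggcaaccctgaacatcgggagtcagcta
This motif was held by 20.7% of all promoter windows. It was in at least 1 window of 10 of the 28 members with a window, 5 of them among the 10 reactive genes (Osmr, S1pr3, Serpina3n, Steap4 and Vim). TTCNNNGAA was not in the Serpina3n window and the NF-kappaB-type motif was not in the Gfap window.

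Lcn2 encodes lipocalin-2, a secreted protein that binds bacterial iron carriers and that reactive astrocytes and neutrophils make. It was at 9.63, 11.8 and 0.868 CPM in WT, at 13.9, 14.5, 25.5 and 14.9 CPM in APP/PS1 and at 25.4, 40.3 and 6.80 CPM in APP/PS1+N-AS. All APP/PS1 libraries were above all WT libraries, and APP/PS1+N-AS 3 lay within the WT range. The log2 fold change compared with WT was 1.24 ± 0.72 in APP/PS1 (SE, adjusted p = 0.429) and 1.74 ± 0.76 in APP/PS1+N-AS (adjusted p = 0.713, both edgeR), and WT 3 was far below the other WT libraries. Without WT 3 the log2 fold changes were 0.68 and 1.18, and without APP/PS1+N-AS 3 the latter was 2.20. In APP/PS1 3, which had the highest Lcn2 of its group, 7 neutrophil markers summed to 122 CPM against 6.07 to 20.9 CPM in the other 9 libraries, and their part in the Lcn2 level was not tested. Timp1, a secreted inhibitor of matrix metalloproteinases on the X chromosome, ranged from 8.80 to 28.2 CPM in WT, 9.75 to 19.5 CPM in APP/PS1 and 11.3 to 12.9 CPM in APP/PS1+N-AS. Its highest value was in WT 3, and without that library the log2 fold change in APP/PS1 compared with WT moved from −0.45 to 0.15. Timp1 lies within the gene Syn1 on the opposite strand, and the part of Syn1 reads in its level was not tested.

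Of the receptors, Cd44 binds hyaluronan, Osmr is the receptor subunit for oncostatin M and S1pr3 is a receptor for sphingosine 1-phosphate. Cd44 was at 11.9, 6.75 and 9.55 CPM in WT, at 11.1, 12.8, 19.6 and 18.1 CPM in APP/PS1 and at 14.0, 12.3 and 7.31 CPM in APP/PS1+N-AS. Only APP/PS1 1 overlapped the WT range, and the log2 fold change compared with WT was 0.73 ± 0.29 (SE, unadjusted p = 0.0268, adjusted p = 0.215, edgeR). Osmr was at 40.8, 54.1 and 14.0 CPM in WT, at 46.7, 40.8, 43.4 and 54.2 CPM in APP/PS1 and at 48.4, 50.1 and 33.0 CPM in APP/PS1+N-AS. The groups overlapped for Osmr, with WT 3 lowest, and without WT 3 the log2 fold change in APP/PS1 compared with WT moved from 0.36 to −0.03. S1pr3 was at 13.3 to 24.8 CPM over the 3 groups, with log2 fold changes of −0.32 in APP/PS1 and −0.33 in APP/PS1+N-AS compared with WT. Steap4, a metalloreductase, and Aspg, an asparaginase, were at low levels of 1.63 to 5.05 CPM and 1.76 to 4.68 CPM, and their groups overlapped in all 3 comparisons.

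**Figure D1:**
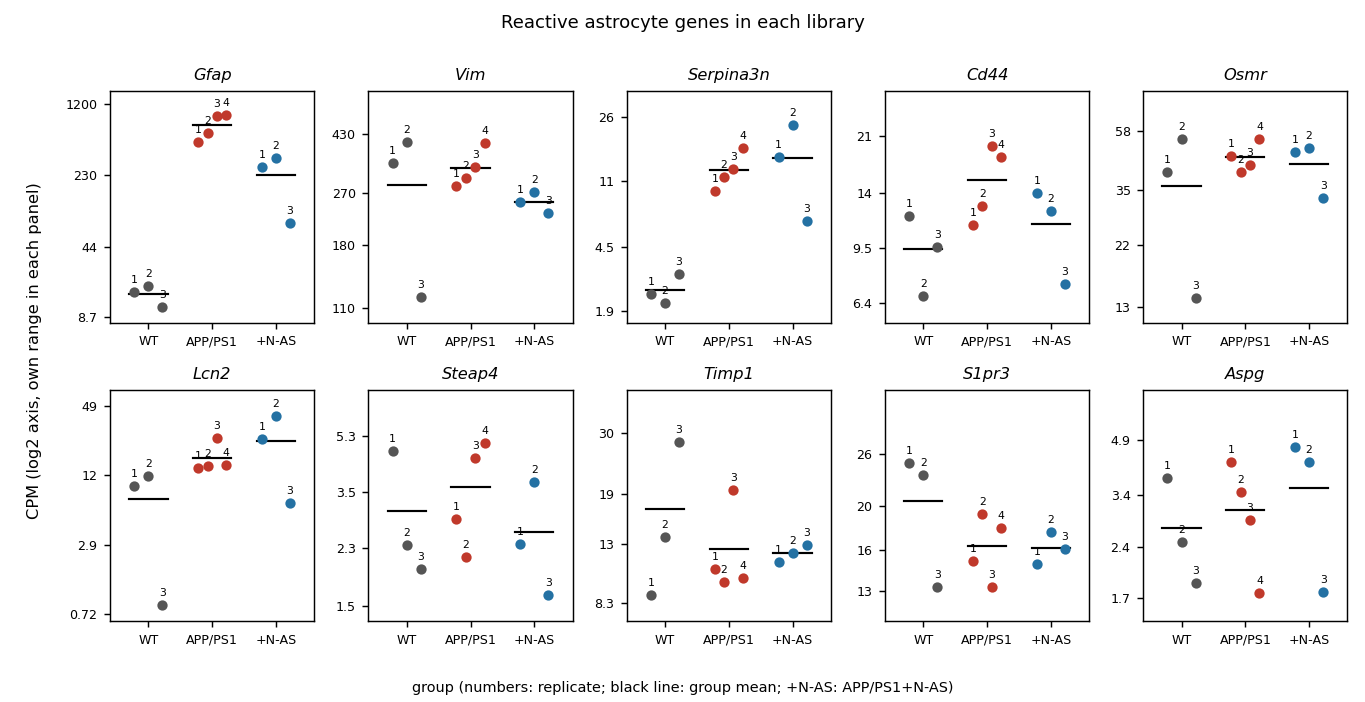
Level of each of the 10 reactive astrocyte genes in the 10 libraries, in CPM on a log2 axis with its own range in each panel, with 1 point per library (numbered by replicate) and a black line at the group mean. Gfap rises from 10.9 to 17.6 CPM in WT to 499 to 923 CPM in APP/PS1, and Serpina3n is above WT in every transgenic library. The groups overlap in every comparison for Cd44, Osmr, Steap4, Timp1, S1pr3 and Aspg.

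The 22 other astrocyte genes mostly overlapped between the groups. S100b, a calcium-binding protein that astrocytes make and release, and that mature oligodendrocytes and ependymal cells also contain, was the only one of them called. It was at 15.9, 20.6 and 13.7 CPM in WT, at 31.0, 30.3, 43.9 and 49.4 CPM in APP/PS1 and at 25.8, 24.7 and 15.6 CPM in APP/PS1+N-AS. APP/PS1 was above both other groups without overlap, and APP/PS1+N-AS 3 lay within the WT range. S100b rose in APP/PS1 compared with WT by a log2 fold change of 1.21 ± 0.24 (SE, adjusted p = 0.0220, edgeR). Compared with APP/PS1, its log2 fold change in APP/PS1+N-AS was −0.81 ± 0.24 (SE, unadjusted p = 0.00590, adjusted p = 0.494, edgeR), or −0.61 without APP/PS1+N-AS 3. The rise in APP/PS1 did not pass the adjustment without WT 1, WT 3, APP/PS1 3 or APP/PS1 4, where the log2 fold change was 1.08 to 1.18 (adjusted p = 0.0529 to 0.0811, edgeR). The 5 choroid plexus and ependymal markers were also at 720 to 1215 CPM in APP/PS1 compared with 21.4 to 413 CPM in WT, and their part in the S100b difference was not tested.

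The genes of glutamate handling were among the most abundant members. Slc1a2 and Slc1a3 encode the glutamate transporters GLT-1 and GLAST, and Glul encodes glutamine synthetase. Per kilobase of exon, Sparcl1, Glul and Slc1a2 had the highest levels in WT, at 367, 153 and 145 CPM per kb, and Gfap moved from place 25 of the 32 in WT to 2 in APP/PS1 and 4 in APP/PS1+N-AS. Slc1a2 was at 1773, 1834 and 2119 CPM in WT, at 1666, 1593, 2391 and 2113 CPM in APP/PS1 and at 1650.5, 1603 and 2509 CPM in APP/PS1+N-AS. The 3 group means lay within 1909 to 1941 CPM, closer together than the libraries of any group. Slc1a3 was at 170.4, 207 and 203 CPM in WT, at 114, 126, 247 and 199 CPM in APP/PS1 and at 133, 150.2 and 292 CPM in APP/PS1+N-AS, so that the transgenic groups reached below and above WT. Glul was at 518, 618 and 391 CPM in WT, at 495, 509, 567 and 561 CPM in APP/PS1 and at 448, 529.5 and 504 CPM in APP/PS1+N-AS, with both transgenic groups inside the WT range. The log2 fold changes of these 3 genes compared with WT were between −0.18 and 0.07 in APP/PS1 and between −0.04 and 0.01 in APP/PS1+N-AS.

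Genes of water, ion and gap junction transport were not called either. Aqp4, the water channel of astrocyte endfeet, was at 38.9, 41.4 and 51.0 CPM in WT, at 25.5, 28.0, 68.2 and 59.0 CPM in APP/PS1 and at 22.3, 24.4 and 58.7 CPM in APP/PS1+N-AS. In both transgenic groups replicates 1 and 2 lay below all WT libraries and the later replicates above them. Gja1, which encodes the gap junction protein connexin 43, was at 124, 122 and 156 CPM in WT, at 78.5, 101, 176 and 109.5 CPM in APP/PS1 and at 107, 131 and 215 CPM in APP/PS1+N-AS, and its groups overlapped. Gjb6, which encodes connexin 30, reached at most 30.0 CPM in WT, 32.5 CPM in APP/PS1 and 36.1 CPM in APP/PS1+N-AS, and its groups overlapped too. The other 3 genes of this kind were Atp1b2 (a sodium pump subunit), Slc4a4 (a sodium bicarbonate cotransporter) and Mlc1 (a membrane protein of perivascular endfeet). Their log2 fold changes in APP/PS1 compared with WT were −0.25, −0.24 and 0.28, and their groups overlapped in all 3 comparisons.

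Of the metabolic genes, Ppp1r3c, which targets protein phosphatase 1 to glycogen, differed in the same direction as S100b. It was at 12.6, 13.0 and 13.8 CPM in WT, at 14.8, 18.6, 28.2 and 26.8 CPM in APP/PS1 and at 15.9, 20.0 and 15.1 CPM in APP/PS1+N-AS. Every transgenic library was above every WT library. The log2 fold change compared with WT was 0.75 ± 0.22 in APP/PS1 (SE, unadjusted p = 0.00627, adjusted p = 0.102, edgeR) and 0.37 ± 0.23 in APP/PS1+N-AS (SE, adjusted p = 0.823, edgeR). It passed the adjustment without APP/PS1 1 (0.90, adjusted p = 0.0338, edgeR). Aldoc, the brain form of the glycolytic enzyme aldolase, was at 74.4, 79.7 and 91.2 CPM in WT, at 44.8, 51.6, 103 and 98.4 CPM in APP/PS1 and at 55.0, 60.5 and 129 CPM in APP/PS1+N-AS, with WT between the low and the high transgenic libraries. Aldh1l1, a folate enzyme widely used as an astrocyte marker, ranged from 20.3 to 25.3 CPM in WT, 15.1 to 24.9 CPM in APP/PS1 and 14.7 to 23.4 CPM in APP/PS1+N-AS. Acsbg1, an acyl-CoA synthetase, had a log2 fold change of −0.65 ± 0.37 in APP/PS1 compared with WT (SE, adjusted p = 0.410, edgeR). Fabp7, a brain fatty acid-binding protein, and Ndrg2, a gene of the NDRG family, had positive values of 1.18 ± 0.51 (adjusted p = 0.262) and 0.67 ± 0.30 (adjusted p = 0.289, both edgeR), and for both the 2 highest libraries of all were APP/PS1 3 and 4. Without APP/PS1 4 their values were 0.67 and 0.46.

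Among the receptors and surface proteins, Ntsr2 and Gpc5 had lower values in APP/PS1. Ntsr2, a neurotensin receptor, was at 23.1, 25.6 and 23.6 CPM in WT, at 11.1, 9.67, 20.1 and 14.9 CPM in APP/PS1 and at 18.3, 15.3 and 36.2 CPM in APP/PS1+N-AS. All 4 APP/PS1 libraries were below all WT libraries, while APP/PS1+N-AS 1 and 2 lay within the APP/PS1 range and APP/PS1+N-AS 3 above all other libraries. Its log2 fold change in APP/PS1 compared with WT was −0.78 ± 0.31 (SE, unadjusted p = 0.0276, adjusted p = 0.217, edgeR), and in APP/PS1+N-AS compared with APP/PS1 it was 0.73 ± 0.31 (SE, adjusted p = 0.540, edgeR), or 0.27 without APP/PS1+N-AS 3. Gpc5, the heparan sulfate proteoglycan glypican 5, was at 28.2, 34.3 and 27.4 CPM in WT, at 16.1, 16.2, 25.5 and 15.8 CPM in APP/PS1 and at 23.4, 21.3 and 39.2 CPM in APP/PS1+N-AS. Again APP/PS1 lay below WT without overlap, with a log2 fold change of −0.70 ± 0.24 (SE, unadjusted p = 0.0134, adjusted p = 0.155, edgeR). Compared with APP/PS1, Gpc5 had a log2 fold change of 0.60 ± 0.24 in APP/PS1+N-AS (SE, adjusted p = 0.531, edgeR), or 0.29 without APP/PS1+N-AS 3, and the libraries overlapped. Fgfr3, a fibroblast growth factor receptor, and Gpr37l1, an orphan receptor of astrocytes, had log2 fold changes of −0.37 and −0.41 in APP/PS1 compared with WT. Sparcl1, the secreted matrix protein hevin that promotes synapse formation, and Sox9, a transcription factor of astrocyte nuclei, had −0.13 and 0.04, and the groups overlapped for all 4 genes in each comparison.

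**Figure D2:**
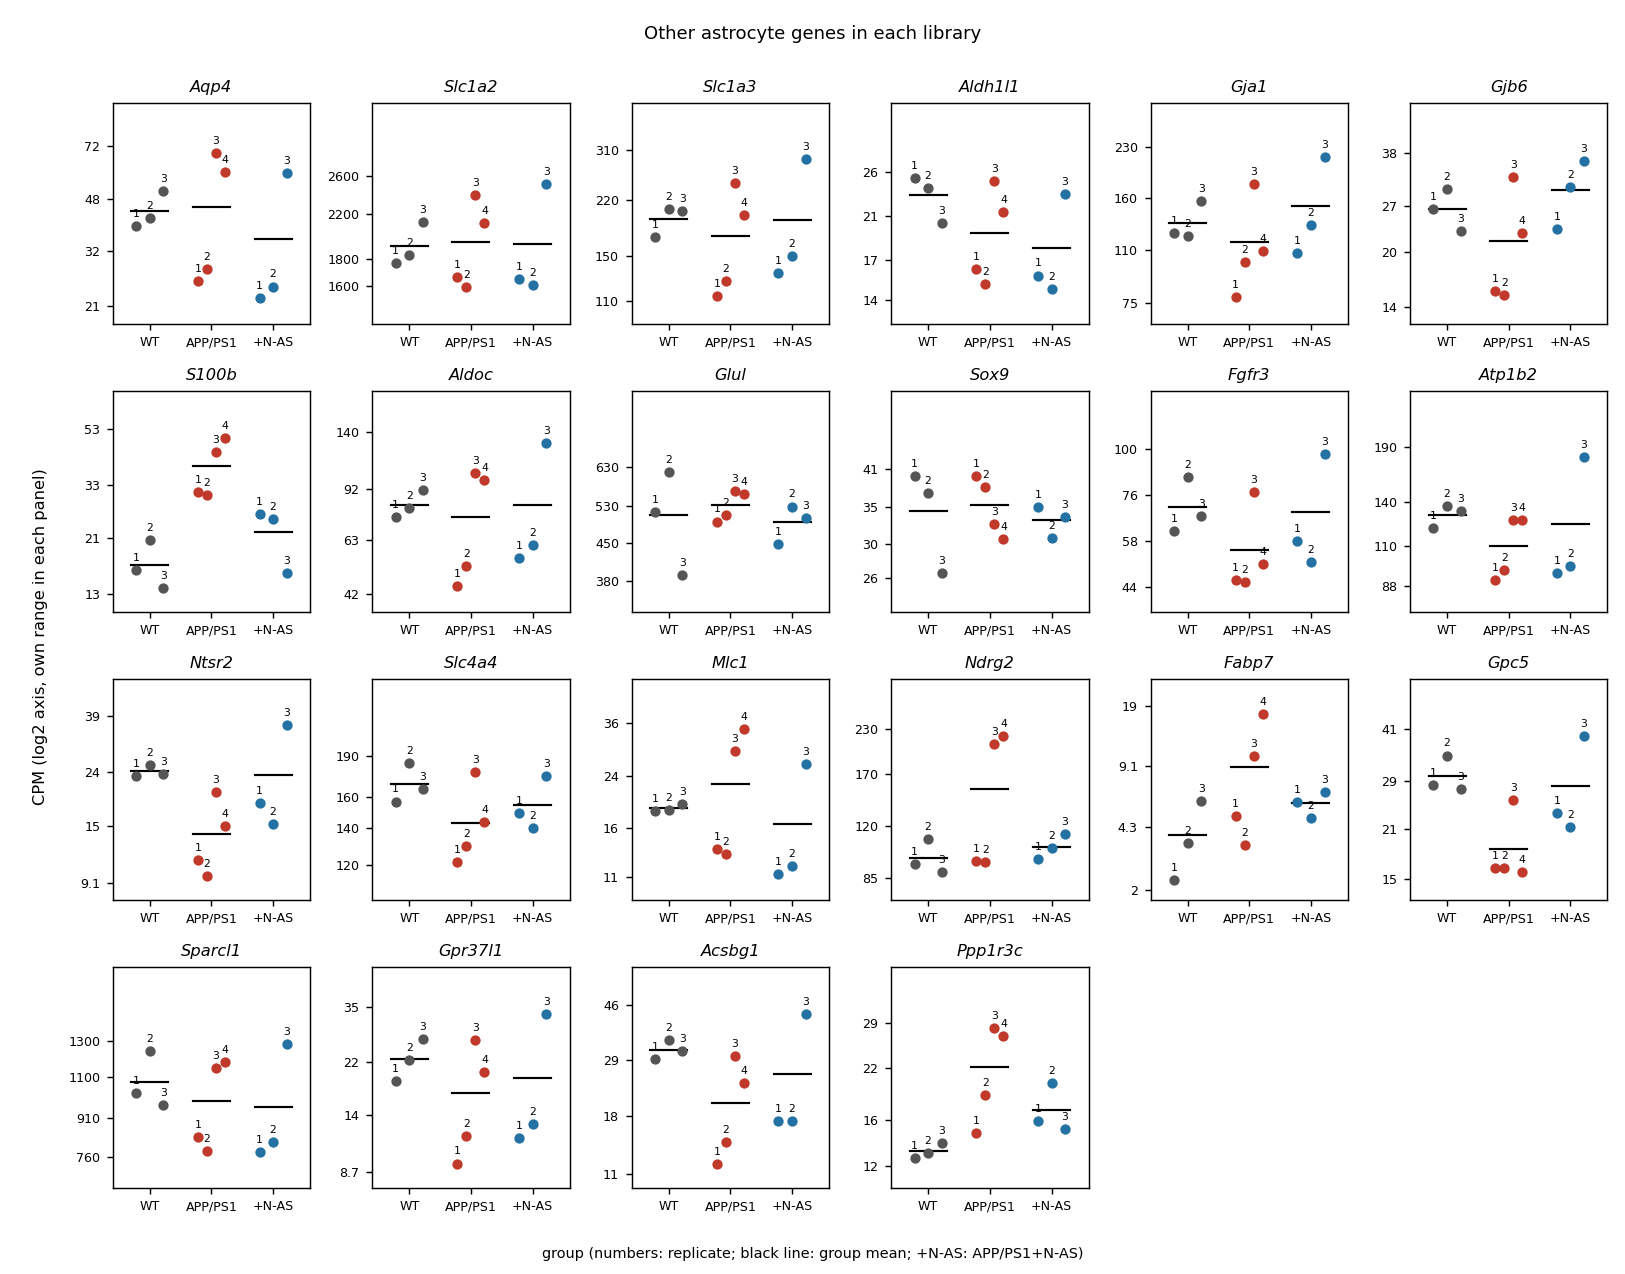
Level of each of the 22 other astrocyte genes in the 10 libraries, in CPM on a log2 axis with its own range in each panel, with 1 point per library (numbered by replicate) and a black line at the group mean. For Aqp4 and Aldoc, replicates 1 and 2 of both transgenic groups lie below WT and the later replicates above it, whereas for S100b all APP/PS1 libraries lie above both other groups.

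Counted over the list, 3 of the 32 members were called higher and 0 lower in APP/PS1 compared with WT at an adjusted p under 0.05 (edgeR), where 2.67% of the 18727 genes tested were called higher and 0.796% lower. At an unadjusted p under 0.05, 7 members were higher and 2 lower, against 8.3% and 8.9% of all genes. DESeq2 called 4 higher (Ppp1r3c in addition) and 0 lower, against 5.26% and 2.98% of the 16534 genes to which it gave an adjusted p. The libraries did not overlap for 5 higher members (Gfap, Serpina3n, Lcn2, S100b and Ppp1r3c) and 2 lower ones, against 8.15% and 6.73% of all genes. The median log2 fold change was 0.33 for the 10 reactive genes and −0.15 for the 22 others, beside −0.07 over all genes tested. Without WT 3 the median of the reactive genes was 0.12, and without APP/PS1 3 that of the others was −0.31.

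Between APP/PS1+N-AS and APP/PS1, 0 members were called in either direction (edgeR), as were 0% of the genes tested. At an unadjusted p under 0.05, Ntsr2 and Gpc5 were higher and Gfap and S100b lower, 2 members each, against 4.78% and 4.05% of all genes. DESeq2 called Gfap lower (log2 fold change −1.68, adjusted p = 0.0159) and no other member, against 0.143% higher and 0.394% lower of the 14722 genes to which it gave an adjusted p, and limma-voom with quantile normalization called 0. The libraries did not overlap for 0 higher and 3 lower members (Gfap, Vim and S100b), against 6.26% and 6.46% of all genes. The median log2 fold change was −0.06 for the reactive genes and 0.05 for the others, beside −0.01 over all genes. Without APP/PS1+N-AS 3 that of the others was −0.25. This comparison shares the APP/PS1 libraries with the comparison to WT.

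Compared with WT, 2 members (Gfap and Serpina3n) were called higher and 0 lower in APP/PS1+N-AS (edgeR), against 0.176% and 0.0107% of the genes tested. At an unadjusted p under 0.05 the counts were 3 and 0, with Lcn2 as the third, against 3.64% and 3.09% of all genes. DESeq2 called 2 and 0, against 0.855% and 0.144% of the 18713 genes to which it gave an adjusted p. The libraries did not overlap for 3 higher members (Gfap, Serpina3n and Ppp1r3c) and 0 lower, against 4.9% and 3.91% of all genes. The median log2 fold change was 0.27 for the reactive genes, −0.05 for the others and −0.04 over all genes. Without APP/PS1+N-AS 3 the first pair of medians was 0.50 and −0.38.

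**Figure D3:**
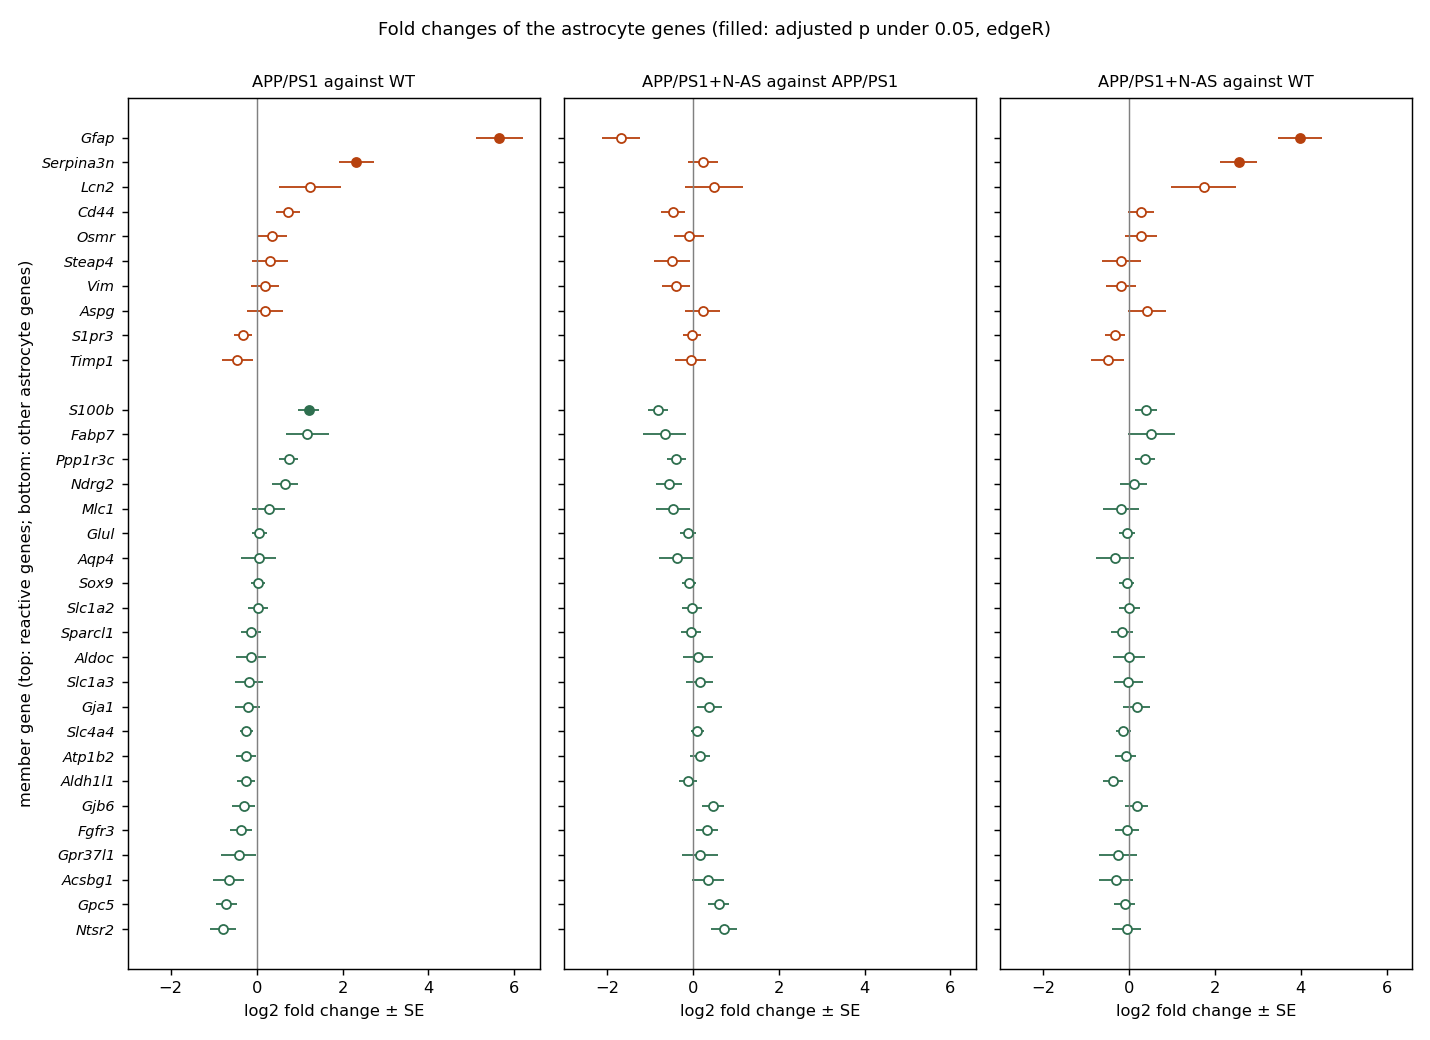
Log2 fold change with its standard error of each of the 32 members in the 3 comparisons (x axis), with reactive genes on top and other astrocyte genes at the bottom. Filled points passed an adjusted p under 0.05 in edgeR's test: Gfap, Serpina3n and S100b in APP/PS1 compared with WT, Gfap and Serpina3n in APP/PS1+N-AS compared with WT, and none in APP/PS1+N-AS compared with APP/PS1.

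The reactive and the other genes were also described as 2 sets, without a test. Of the 10 reactive genes, 2 were called higher in APP/PS1 and 2 in APP/PS1+N-AS, each compared with WT (edgeR). Of all genes, 2.67% and 0.176% were called higher in these comparisons. Between APP/PS1+N-AS and APP/PS1, 0 of the 10 were called, as were 0% of all genes. For the 10 reactive genes, mean log2 CPM (± SD over libraries) was 3.50 ± 0.45 in the 3 WT libraries, 4.61 ± 0.19 in the 4 APP/PS1 libraries and 4.32 ± 0.55 in the 3 APP/PS1+N-AS libraries. That of the 22 others was 5.95 ± 0.09 in WT, 5.87 ± 0.42 in APP/PS1 and 5.89 ± 0.37 in APP/PS1+N-AS, so that their group means differed by less than the spread of the transgenic libraries. The reactive mean minus that of the others ranged from −2.97 to −2.05 (WT), from −1.51 to −1.06 (APP/PS1) and from −2.61 to −0.94 (APP/PS1+N-AS). APP/PS1 lay above WT without overlap, and APP/PS1+N-AS overlapped both. With Gfap and Serpina3n left out of the reactive set, the ranges were −2.87 to −1.76, −1.99 to −1.48 and −2.81 to −1.37, and all 3 groups overlapped. The mean log2 CPM of the other 8 reactive genes differed between APP/PS1 and WT by 0.40, with −0.04 within library numbers 1 to 6 and 1.17 within 7 to 10. Of the reads of the 10 reactive genes, Gfap took 3.28% to 5.35% (WT), 55.5% to 65.5% (APP/PS1) and 19.3% to 43.7% (APP/PS1+N-AS). These are descriptions of sets chosen with results of these libraries known.

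The other astrocyte genes varied more among the libraries of a transgenic group than between groups. In APP/PS1, libraries 3 and 4 were both above libraries 1 and 2 for 20 of the 22 others and 6 of the 10 reactive genes, an order that 29.4% of all genes tested had. The exceptions among the others were Sox9 and Gpc5. The Y-linked genes also separated libraries 1 and 2 from 3 and 4, and the part of sex in this order was not tested. The median ratio of the mean of libraries 3 and 4 to that of 1 and 2 was 1.62 for the others, reaching 2.38 for Aqp4 and 3.29 for Fabp7. In APP/PS1+N-AS, library 3 was the highest for 18 of the 22 others (39.6% of all genes) and the lowest for 8 of the 10 reactive genes (38.9% of all genes), so that the high general astrocyte genes and the low Gfap were in the same library. In WT, library 3 was the lowest for 7 reactive and 8 other members (40% of all genes).

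Within library numbers 1 to 6, the mean log2 CPM of the 22 others differed by −0.43 between APP/PS1 and WT, and within numbers 7 to 10, which hold 1 WT library, by 0.29. The direction thus was not the same in both sets. For the 10 reactive genes these differences were 0.69 and 1.79. Between APP/PS1+N-AS and APP/PS1 the reactive genes differed by 0.19 within the first set and by −1.07 within the second. Without APP/PS1+N-AS 3 the overall difference of −0.29 became 0.03. Some reactive members followed this split: Serpina3n differed by 0.83 and −1.19 between APP/PS1+N-AS and APP/PS1. Cd44, Osmr, Lcn2, Steap4, Timp1 and Aspg changed sign in the same way, and S1pr3 the other way. Gfap (−0.85 and −3.58) and Vim (−0.17 and −0.65) were negative in both sets, as was S100b of the others (−0.28 and −1.57).

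The markers of other cell types also differed between the libraries. The summed level of 12 microglial markers was 758 to 1120 CPM in WT, 2441 to 3175 CPM in APP/PS1 and 1521 to 1988 CPM in APP/PS1+N-AS, in the same order of groups as Gfap. Of the 12, 10 were called higher in APP/PS1 compared with WT (edgeR), against 2.67% of all genes. Within APP/PS1, the 10 oligodendrocyte markers summed to 4777 and 4235 CPM in libraries 1 and 2 and to 1980 and 2030 CPM in libraries 3 and 4, in the opposite order to the other astrocyte genes. The 22 others summed to 3793, 3740, 5591 and 5138 CPM in these libraries. In WT and APP/PS1+N-AS, the oligodendrocyte sums were 7024, 7156 and 2472 CPM and 3919, 4023 and 2942 CPM. Every marker of these lists had reads in every library, and 5 fibroblast markers reached 508 CPM in APP/PS1 3 against 102 to 169 CPM elsewhere. The part of these cell mixtures in the levels of the astrocyte genes was not tested.

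**Figure D4:**
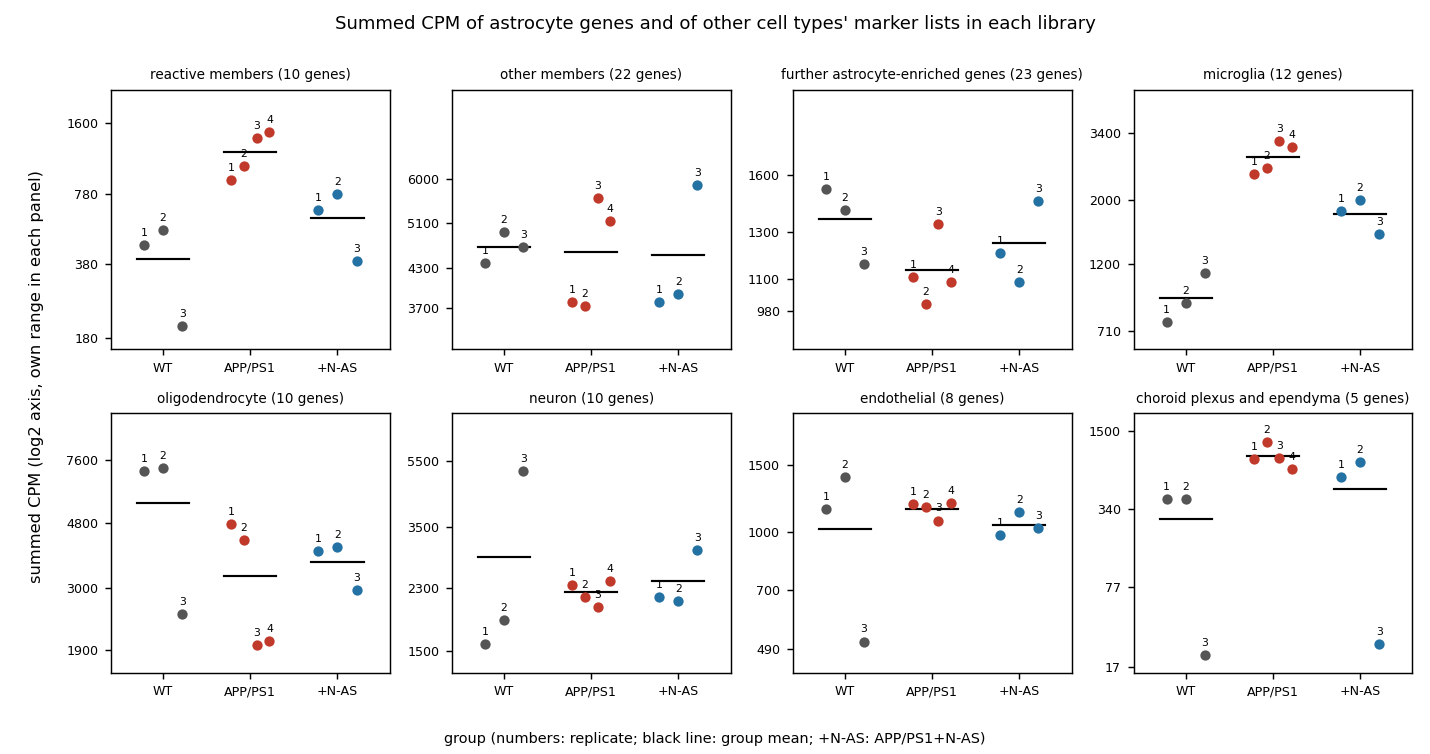
Summed CPM of the reactive and other astrocyte genes, of 23 further astrocyte-enriched genes and of marker lists of other cell types in each of the 10 libraries, on a log2 axis with its own range in each panel, with 1 point per library (numbered by replicate) and a black line at the group mean. The reactive sum is 204 to 538 CPM in WT and 899 to 1462 CPM in APP/PS1, the other astrocyte genes overlap between all groups, and WT 3 stands apart for the neuronal and endothelial lists and, with APP/PS1+N-AS 3, for the choroid plexus list.

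Further astrocyte genes were read from lists set by their textbook roles. Of 23 astrocyte-enriched genes outside the members, 0 were called higher and 2 lower in APP/PS1 compared with WT (edgeR). Of all genes, 2.67% were called higher and 0.796% lower. At an unadjusted p under 0.05 (edgeR), 2 of the 23 were higher and 9 lower, against 8.3% and 8.9% of all genes. The libraries did not overlap for 0 higher and 7 lower genes, against 8.15% and 6.73% of all genes. Of the 23, 19 had a log2 fold change below 0, with a median of −0.47 beside −0.07 over all genes. The lowest p-values were those of Bcan, the matrix proteoglycan brevican (−0.93 ± 0.21, adjusted p = 0.0387), Hepacam, an adhesion molecule that binds Mlc1 (−0.84 ± 0.20, adjusted p = 0.0436), and Etnppl, an enzyme of phosphoethanolamine (−1.18 ± 0.32, adjusted p = 0.0724, all edgeR). Of the 10 fits that left out 1 library, Bcan passed in 2, without WT 3 or APP/PS1 1, with −0.97 to −0.73 in the other 8 (adjusted p = 0.0601 to 0.125, edgeR). Hepacam also passed in 2, without WT 3 or APP/PS1+N-AS 3, with −0.88 to −0.68 in the other 8 (adjusted p = 0.0660 to 0.135, edgeR). In APP/PS1+N-AS compared with APP/PS1, 0 of the 23 were called (edgeR), as were 0% of all genes. At an unadjusted p under 0.05 (edgeR), 4 were higher and 0 lower, against 4.78% and 4.05% of all genes. Of the 23, 18 had values above 0, with a median of 0.25 beside −0.01 over all genes. Prodh, Cbs and Bcan came first with 0.62 ± 0.18, 0.79 ± 0.23 and 0.72 ± 0.21 on the log2 scale (adjusted p = 0.494 each, edgeR). In APP/PS1+N-AS compared with WT, 0 were called (edgeR, and 0 at an unadjusted p under 0.05), the median was −0.19, and Hepacam, Lcat and Etnppl came first with −0.46, −0.49 and −0.62.

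Reactive astrocytes have been sorted into an A1 set after inflammation and an A2 set after ischaemia. Of 12 A1 genes, 1 was called higher and 0 lower in APP/PS1 compared with WT, the immunoproteasome subunit Psmb8 (1.29 ± 0.28, adjusted p = 0.0331, edgeR), followed by the MHC class I gene H2-D1 (1.41 ± 0.36, adjusted p = 0.0598) and the stress hormone response gene Fkbp5 (0.83 ± 0.25, adjusted p = 0.111, both edgeR). Of the 11 of 12 A2 genes that passed the filter, 1 was called, Cd14, a co-receptor for bacterial lipopolysaccharide (2.65 ± 0.24, adjusted p = 0.000458, edgeR), followed by Cd109 (0.62) and Sphk1 (−0.83). The medians of the A1 and A2 lists were 0.20 and −0.08. Of all genes tested, 2.67% were called higher and 0.796% lower in APP/PS1 compared with WT (edgeR). Psmb8, H2-D1 and Cd14 are also made by microglia, whose summed markers were higher in APP/PS1 (2441 to 3175 CPM) than in WT (758 to 1120 CPM), and their part in these values was not tested. Of 3 further pan-reactive genes, the chemokine gene Cxcl10 was called (2.22 ± 0.50, adjusted p = 0.0390, edgeR), and Cp and Hspb1 were at 0.24 and −0.19. The part of microglia in the Cxcl10 value was not tested either. Cd14 passed with each of the 10 libraries left out. Psmb8 lost the adjustment without WT 1, WT 3, APP/PS1 2, 3 or 4, or APP/PS1+N-AS 1 (1.11 to 1.33, adjusted p = 0.0590 to 0.109, edgeR). Cxcl10 kept it without WT 1 or APP/PS1+N-AS 3 and lost it in the other 8 fits (1.87 to 2.39, adjusted p = 0.0554 to 0.111, edgeR).

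In APP/PS1+N-AS compared with APP/PS1, 0 genes of these 3 lists were called (edgeR), as were 0% of all genes. At an unadjusted p under 0.05 the A1 list had 0 higher and 2 lower and the A2 list 1 higher and 2 lower. Of all genes, 4.78% were higher and 4.05% lower. Psmb8, H2-D1 and Srgn led the A1 list with −0.88, −0.91 and −0.58, Cd14, Cd109 and Slc10a6 the A2 list with −0.79, −0.62 and 1.13, and Cxcl10, Cp and Hspb1 had −0.98, −0.12 and 0.11. The medians of the A1 and A2 lists were −0.35 and −0.19. Compared with WT, 0.176% of all genes were called higher in APP/PS1+N-AS. Of the A2 list, Cd14 was called (1.85 ± 0.25, adjusted p = 0.0187, edgeR), followed by Slc10a6 (0.87) and B3gnt5 (−0.86). That call was lost without WT 1, WT 2, APP/PS1+N-AS 1 or APP/PS1+N-AS 2 (1.67 to 1.92, adjusted p = 0.0939 to 0.127, edgeR). The A1 list had Fkbp5 (1.21 ± 0.27, adjusted p = 0.163, edgeR), Amigo2 (−0.45) and Ugt1a1 (−1.28) first, and Cxcl10, Cp and Hspb1 were at 1.24, 0.12 and −0.08.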

How the data were processed

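RNA of microglia fractions from mouse cortex was sequenced in 10 libraries (WT, n = 3, APP/PS1, n = 4, APP/PS1+N-AS, n = 3). The authors depleted ribosomal RNA, used a stranded kit, mapped the paired-end reads by TopHat and deposited counts of reads per gene symbol that had not been normalized. The submitters' processing notes name the build mm10 (GRCm38) and edgeR, and tool versions and the strand setting of the counting are not given in the sources used here. The study's FPKM values were not used.

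Each table listed 24481 rows with 24421 symbols. The 103 rows that share 43 symbols were summed, and no member was among them. Genes were filtered with filterByExpr, scaled by TMM and tested with edgeR 4.0.16 in R 4.3.3 (glmQLFit and glmQLFTest, 1 model of 3 groups and no covariate). P-values were two-sided and adjusted by Benjamini-Hochberg over 18727 genes, with a threshold of 0.05. The fitted common dispersion of 0.0752 equals 27.4% biological variation. Log2 CPM used a prior count of 2. Reads carried no molecular identifiers, so counting error alone understates their error. Libraries of 1 group differed by 12.2 to 126 times sampling noise (chi-square per degree of freedom), so none was a copy of another. These values are set against counting noise only and cannot show that the pools were separate. Each library is a pool of mice, and p-values measure the spread between these libraries. The model was tested on simulated data with known changes. It recovered 31.4% of 2-fold changes between APP/PS1 and WT, 32.7% between APP/PS1+N-AS and APP/PS1 and 22% between APP/PS1+N-AS and WT. For 4-fold changes the shares were 80.6%, 81.4% and 79.8%, so a gene that was not called may still differ.

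Replicate numbers come from the labels. After group means were removed, same-numbered libraries of APP/PS1+N-AS and APP/PS1 correlated across genes with r of 0.278, 0.142 and 0.309. Of 6 libraries, 4 correlated best with their own number. The labels name no pairing and these values cannot show one, and the replicate number was tried as a block. Alternatives were scaling by total counts, DESeq2 1.42.0, limma-voom (limma 3.58.1) after quantile normalization, 2 other filters (1 read in all, at least 10 counts in every library), the library set as a covariate, only the 2 groups compared, a prior count of 0.5 and each library left out.

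The members, the further lists and the tests were chosen with earlier results of these data known. All members are named. Values in every library are given for 12 members set by name and for each other member that was called or did not overlap in a comparison, and the others are given by range or fold change. Further lists show the 3 lowest p-values. Gene positions and exon lengths came from GENCODE M21 and promoter windows from RefSeq (GRCm38.p6), which matched 28 of the 32 members.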

Additional observations from a re-analysis of the deposited data

Results flagged for a closer look

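In 34 groups of 4 values, the log2 CPM of the members and 2 set means in APP/PS1, 3 genes had 1 library far from the others of its group, each time APP/PS1 3 as the highest. Chance marks about 1 in 20 such groups when they are independent. The 34 groups share the same 4 libraries, so the 3 marked genes cannot be set against that rate. Lcn2 was at 4.68 on the log2 scale in that library, compared with 3.81 to 3.91 in the other 3. Timp1 was at 4.30 compared with 3.30 to 3.44. Gpc5 was at 4.68 compared with 3.99 to 4.03. The same library had 122 CPM of neutrophil markers and 508 CPM of fibroblast markers, the highest sums of all libraries, and their part in these 3 values was not tested.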

How the results depend on the processing

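The differences below are log2 values. Gfap in APP/PS1 compared with WT was called in all 15 alternatives (5.47 to 5.81), Serpina3n in 11 and S100b in 10 of 15. The members called numbered 3, and 1 with the replicate block (Gfap), 4 with the library set as a covariate or with DESeq2, 2 with quantile normalization (Gfap and S100b), and 1 to 4 when 1 library was left out. Only APP/PS1 has a replicate 4. The block fits that library by itself, so the differences in the block rest on the other APP/PS1 libraries. With the library set, Ntsr2 was called lower (−0.97, adjusted p = 0.0323, edgeR). In the block Serpina3n was 2.13 (adjusted p = 0.0595) and S100b 1.09 (adjusted p = 0.0846, both edgeR), and Fabp7 and Ndrg2, not called, were 0.61 and 0.36. Of the further lists, Bcan (adjusted p = 0.118), Hepacam (0.104) and Psmb8 (0.0521, all edgeR) lost their calls in the block, as did Cd14 in APP/PS1+N-AS compared with WT (0.0577). Between APP/PS1+N-AS and APP/PS1, 0 were called except with DESeq2 (1, Gfap), also 0 whichever library was left out, and the replicate block changed no call. Compared with WT, 2 members were called in APP/PS1+N-AS, 1 with total counts only, with the library set as a covariate or with quantile normalization, 0 with the replicate block or with only the 2 groups compared, and 0 to 2 when 1 library was left out. The cause of these changes was not tested. Same-numbered libraries correlated with r of −0.485, 0.441 and −0.01 for APP/PS1 and WT and −0.136, 0.348 and 0.24 for APP/PS1+N-AS and WT. Of 6 libraries each, 2 and 3 correlated best with their own number. The labels give these groups the same numbers only, and these values do not settle whether libraries were paired.

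The mean log2 CPM of the reactive genes differed by 1.11 between APP/PS1 and WT (0.69 within library numbers 1 to 6, 1.79 within 7 to 10) and by −0.29 between APP/PS1+N-AS and APP/PS1 (0.19 and −1.07). That of the other genes differed by −0.07 between APP/PS1 and WT (−0.43 and 0.29) and by −0.06 between APP/PS1+N-AS and WT (−0.27 and 0.37). For members with an unadjusted p under 0.05 in a comparison (edgeR), 208 of 237 alternatives kept direction and side of the threshold. Of the rest, 25 lost a call, 4 gained one and 0 changed sign. Among members without such a p, Vim, Osmr and Timp1 in APP/PS1 compared with WT included, 24, 40 and 43 fits of the 3 comparisons changed sign. In the same order, 321, 380 and 363 fits kept direction and side of the threshold. Members with few reads, such as Lcn2 (18 reads in WT 3), Fabp7 and Serpina3n, have imprecise fold changes.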
